A study of Mus musculus with 6 samples.

Results

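The 10 genes described here encode transcription factors and a coactivator that act in heart and muscle: the homeobox factor Nkx2-5, the T-box factors Tbx5 and Tbx20, the basic helix-loop-helix factors Hand1 and Hand2, the MADS box factors Mef2a, Mef2c, Mef2d and Srf, and the coactivator Myocd. They were chosen by gene symbol in the platform's annotation, with earlier results of these arrays known, and of several probe sets for a gene the one with the highest mean over the arrays was to stand for it. Each of the 10, among 19505 genes with a probe set, had 1 probe set, so that this mean decided nothing.

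In the embryo, Nkx2-5, Tbx5 and their partner Gata4 bind each other and switch on genes of the working heart muscle, and Tbx20, Hand1 and Hand2 pattern the chambers and the outflow tract. The MADS box factors act in many tissues: Srf binds the CArG box of muscle genes and of genes that answer growth signals, and the Mef2 factors bind a related A/T-rich site in heart, skeletal muscle, vessels, lymphocytes and neurons. Myocd does not bind DNA alone but joins Srf on CArG boxes of smooth and heart muscle genes. In the gut, the best known places of these factors are the muscle layers and vessels, and for Hand2 the enteric neurons, and not the epithelium of the crypts.

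The study comprised 6 single-colour arrays, each of total RNA labelled as colon crypt, the gland of the large bowel lining, of C57BL/6J mice. 3 arrays came from mice that received MBELN, exosome-like nanoparticles from the bark of mulberry, by gavage of 100 µl on each of 7 days. The other 3 came from control mice and are titled PBS; the labels do not say what these mice were given. No age, sex or genetic change is stated, and the labels tie no array to a mouse of its own, so that the spread behind each p-value is one between arrays and may be technical.

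Of the 6 arrays, PBS 2 alone carried high levels of both gut epithelial and colon markers. The median of 11 gut epithelial markers was 6.90, 3.35 and 6.08 in MBELN 1, 2 and 3, against 17.82, 17.79 and 17.91 in PBS 1, 2 and 3 (log2). The median of 10 heart muscle markers was 18.85 in MBELN 1 and 18.98 in MBELN 3 but 3.72 in MBELN 2, against 3.67 to 4.13 in PBS. For 9 neuronal markers it was 15.56 in MBELN 2 and 3.13 and 3.55 in MBELN 1 and 3, against 3.75 to 4.45 in PBS. Smooth muscle markers, 6 in number, had medians of 7.19, 3.34 and 6.27 in MBELN, against 12.14, 14.10 and 12.44 in PBS, and endothelial markers had 12.29, 4.52 and 11.98, against 3.99, 5.36 and 3.57. PBS 2 stood apart from PBS 1 and 3. Its median of 6 colon epithelial markers was 17.27, beside 6.03 and 7.52 in PBS 1 and 3, that of 7 small intestinal enterocyte markers 4.76, beside 18.92 in each, and that of 5 Paneth cell markers 3.44, beside 18.68 and 19.45. PBS 1 and 3 thus carried small intestinal markers and low colon markers, against their label. The MBELN arrays, with low gut epithelial and high heart or neuronal medians, went against the same label. Their colon epithelial medians were 4.35, 3.27 and 2.85 in MBELN 1, 2 and 3. As arrays of the same label hold unlike RNA, every value below is given by array, and in bulk RNA fewer cells of a type and less RNA per cell cannot be told apart. The part of these markers in each result was not tested.

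A probe set counts here as above background where it exceeds the 95th percentile of 1414 odorant and vomeronasal receptor probe sets of the same array, between 3.99 and 4.44. By this measure 9, 4 and 9 of the 10 genes were above background in MBELN 1, 2 and 3, against 6, 5 and 6 in PBS 1, 2 and 3. Of all transcript probe sets 50.7, 55.2 and 50.3% were above it in MBELN and 53.1, 52.0 and 55.0% in PBS, so that the PBS counts are near that share. The 4 genes above it in every array were Mef2a, Mef2c, Mef2d and Srf. In 7 of the 10 genes the highest and second highest values came from MBELN 1 and MBELN 3. The share of all probe sets with this order was not counted, and MBELN 1 and 3 correlated at 0.977 over all of them. These arrays differed from each other by 0.04 (Mef2d) to 1.75 (Hand2), and PBS 1 from PBS 3 by 0.05 (Tbx20) to 2.60 (Mef2c).

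**Figure D1:**
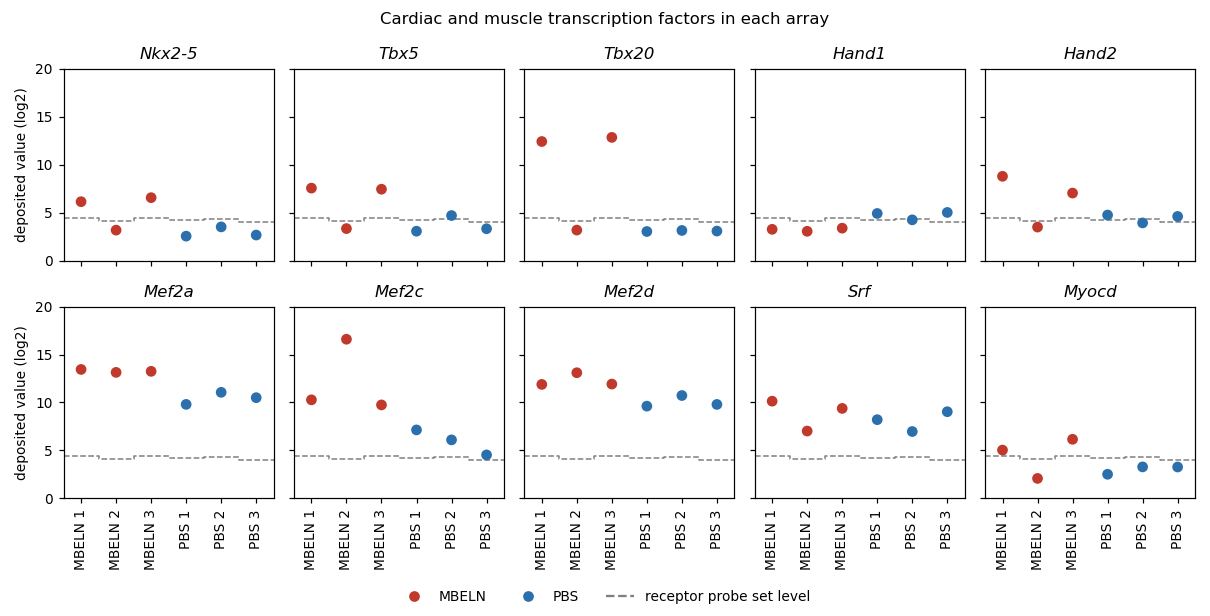
Deposited log2 value of each gene (vertical axis) in each of the 6 arrays (horizontal axis), MBELN in red and PBS in blue, with the dashed line at the array's level of receptor probe sets. Tbx20 stands at 12.40 and 12.83 in MBELN 1 and 3 and under the line in the other arrays, Mef2c is highest in MBELN 2, at 16.59, and Mef2a is higher in all 3 MBELN arrays than in any PBS array.

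The homeobox and T-box factors were present in MBELN 1 and 3 and near or under background elsewhere. Nkx2-5, an early marker of heart muscle precursors, read 6.13, 3.16 and 6.55 in MBELN 1, 2 and 3. In PBS 1, 2 and 3 it read 2.54, 3.50 and 2.65. Tbx5, which acts in the atria, the left ventricle and the conduction system, read 7.54, 3.33 and 7.43 in MBELN, against 3.05, 4.69 and 3.31 in PBS. MBELN 2 was below background in both genes, and so were all PBS values but that of Tbx5 in PBS 2.

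Tbx20, a factor that adult heart muscle still needs, read 12.40, 3.17 and 12.83 in MBELN, against 3.02, 3.13 and 3.07 in PBS. MBELN 1 and 3 were thus the arrays above background, while MBELN 2 exceeded the highest PBS array by 0.04, among values below background that have no order. The mean of the 3 MBELN arrays lay 39.3-fold above the background of the PBS arrays for Tbx20 and 2.16-fold for Nkx2-5. In both genes this mean includes MBELN 2 at a value below background, so neither fold is a strict lower bound. With limma over all 22206 transcript probe sets, the measured differences of MBELN minus PBS were 6.39 ± 2.66 for Tbx20 (log2, SE, n = 3 per group, adjusted p = 0.295), 2.38 ± 0.96 for Nkx2-5 (0.281) and 2.42 ± 1.26 for Tbx5 (0.400), none past the threshold of 0.05.

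Neither Hand factor passed the threshold. Hand2, needed for the right ventricle and for enteric and sympathetic neurons, read 8.77, 3.48 and 7.03 in MBELN, against 4.74, 3.92 and 4.59 in PBS. MBELN 2 and PBS 2 were below background, so that these arrays have no order between them. PBS 1 and 3 lay between MBELN 2 and the other MBELN arrays. Its difference was 2.01 ± 1.35 (limma, SE, n = 3, adjusted p = 0.514). Hand1, a factor of the left ventricle and, in mouse, of extraembryonic tissue and gut mesenchyme, read 3.25, 3.04 and 3.37 in MBELN, against 4.90, 4.24 and 5.01 in PBS.

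All 3 MBELN values of Hand1 were below background and below all PBS values, 2 of which were above background. The measured difference was -1.49 ± 0.32 (SE, n = 3, limma, adjusted p = 0.0647). With MBELN at its background, Hand1 was 1.32-fold lower there than the PBS mean. That mean includes PBS 2 below background, so the fold is not a strict bound. Hand1 did not pass the threshold with all arrays but did without MBELN 2 (adjusted p = 0.0486) and without PBS 2 (0.039).

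The sequences around the RefSeq start sites of Nkx2-5, Tbx20 and Hand2 (mouse build GRCm38.p6) are shown because these 3 factors were high in the same arrays, MBELN 1 and 3. Each runs 5′ to 3′ on the gene's own strand, from 250 bases before the start to 10 after it, in lower case, with matches to any of 6 searched motifs in capitals.
Nkx2-5, chr17:26841556-26841815, minus strand: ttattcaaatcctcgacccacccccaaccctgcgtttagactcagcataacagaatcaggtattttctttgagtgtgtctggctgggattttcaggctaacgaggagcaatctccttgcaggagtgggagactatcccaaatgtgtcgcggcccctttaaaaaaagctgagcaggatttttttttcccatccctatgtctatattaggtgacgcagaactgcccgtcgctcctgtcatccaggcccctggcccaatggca
Tbx20, chr9:24774294-24774553, minus strand: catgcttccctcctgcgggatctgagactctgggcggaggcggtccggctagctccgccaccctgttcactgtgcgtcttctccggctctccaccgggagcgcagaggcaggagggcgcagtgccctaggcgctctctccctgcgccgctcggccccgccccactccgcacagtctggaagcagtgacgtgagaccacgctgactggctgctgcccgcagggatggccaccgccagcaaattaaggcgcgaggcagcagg
Hand2, chr8:57320733-57320992, plus strand: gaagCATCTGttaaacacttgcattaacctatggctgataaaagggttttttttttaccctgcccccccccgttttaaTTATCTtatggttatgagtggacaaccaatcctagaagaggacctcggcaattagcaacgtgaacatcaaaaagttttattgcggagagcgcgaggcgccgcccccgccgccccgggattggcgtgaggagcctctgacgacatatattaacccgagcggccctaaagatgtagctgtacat

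The motifs, sought on both strands, were the CArG box, the MEF2 site, the T-box half-site AGGTGT, the NK homeobox site TNAAGTG, the E-box CATCTG that Hand2 can bind, and the GATA site AGATAA. Hand2 held an E-box at positions -246 to -241 from its start and, on the other strand, a GATA site at -172 to -167. None of the 6 motifs stood in the windows of Nkx2-5 or Tbx20, which says only that these letters are not there. Among all 32851 windows of this length, 15.1% held the E-box, 10.3% the GATA site, 12.2% the T-box half-site and 10.4% the NK homeobox site. A match is a description of the sequence and not a binding site shown in these samples.

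Among the Mef2 genes, Mef2a was the single one of the 10 that passed the threshold. It read 13.44, 13.14 and 13.25 in MBELN 1, 2 and 3, against 9.80, 11.06 and 10.50 in PBS 1, 2 and 3. All MBELN values lay at least 2.08 above the highest PBS value, and the MBELN arrays with heart and with neuronal markers stood closer to each other than the PBS arrays did. Mef2a, which maintains the mitochondria and structure of adult heart muscle, was higher in MBELN by 2.82 ± 0.39 (log2, SE, n = 3, limma, adjusted p = 0.0177). This call ended without MBELN 1 (adjusted p = 0.0828), MBELN 3 (0.0819), PBS 1 (0.0620) or PBS 3 (0.0914), while the difference stayed between 2.50 and 3.12 over all 6 fits that leave out an array.

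Mef2c had the widest range of the 10 genes over the arrays, with its highest value in MBELN 2 and its lowest in PBS 3. Its values were 10.28, 16.59 and 9.75 in MBELN, against 7.14, 6.10 and 4.54 in PBS, with no overlap. Mef2c is the first Mef2 gene of the embryonic heart and also drives maturation of cortical neurons and of vessels, and MBELN 2, its highest array, was the one with neuronal markers. The difference was 6.28 ± 1.97 (limma, SE, n = 3, adjusted p = 0.171), with an SD of 3.81 among the MBELN arrays and 1.31 among the PBS arrays. It was 4.08 ± 0.78 without MBELN 2 (adjusted p = 0.0223) and 10.66 ± 1.13 with MBELN 2 as the lone MBELN array (adjusted p = 0.010), in a fit that assumes that this array varies like those of PBS.

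Mef2d, a broadly expressed Mef2 gene, read 11.88, 13.10 and 11.92 in MBELN, against 9.62, 10.73 and 9.80 in PBS. The groups did not overlap, with a gap of 1.16, and MBELN 2 was again highest. The difference of 2.25 ± 0.50 (limma, SE, n = 3) had an adjusted p of 0.0720, and it passed the threshold without MBELN 2 (1.85, adjusted p = 0.0366).

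Srf, the founder of the MADS box muscle regulators, overlapped between the groups. It read 10.14, 7.03 and 9.38 in MBELN, against 8.21, 6.98 and 9.04 in PBS, so that MBELN 2 and PBS 2 were its lowest arrays. PBS 2 was at the same time the array with the highest median of smooth muscle markers, 14.10. The difference was 0.77 ± 0.96 (limma, SE, n = 3, adjusted p = 0.721), and 1.69 without MBELN 2.

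Myocd read 5.04, 2.09 and 6.17 in MBELN, against 2.52, 3.29 and 3.28 in PBS. The coactivator was thus above background in MBELN 1 and 3 and below it in every PBS array, in which smooth muscle markers had medians of 12.14 to 14.10. With MBELN 2 as its lowest array the groups overlapped, and the difference was 1.40 ± 1.07 (limma, SE, n = 3, adjusted p = 0.564). The mean over the 3 MBELN arrays was 1.20-fold above the PBS background. It includes MBELN 2 below background, so this fold is not a strict lower bound.

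The start windows of Mef2a, which passed the threshold, and of Srf are shown because they hold sites for MADS box factors themselves, in capitals.
Mef2a, chr7:67372849-67373108, minus strand: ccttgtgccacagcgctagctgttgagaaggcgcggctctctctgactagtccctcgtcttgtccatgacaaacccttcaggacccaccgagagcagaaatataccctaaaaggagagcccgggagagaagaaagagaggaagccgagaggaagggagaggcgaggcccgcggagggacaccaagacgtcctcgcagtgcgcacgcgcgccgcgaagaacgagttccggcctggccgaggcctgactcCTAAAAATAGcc
Srf, chr17:46556153-46556412, minus strand: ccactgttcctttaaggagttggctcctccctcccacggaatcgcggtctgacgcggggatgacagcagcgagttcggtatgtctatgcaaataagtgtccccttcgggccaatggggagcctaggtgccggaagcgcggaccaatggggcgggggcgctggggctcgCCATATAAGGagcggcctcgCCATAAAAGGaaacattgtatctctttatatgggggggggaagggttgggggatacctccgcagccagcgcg

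In Mef2a, a MEF2 site, CTAAAAATAG, spanned positions -2 to 8 around the start. In Srf, a pair of CArG boxes, CCATATAAGG and CCATAAAAGG, stood at -82 to -73 and -62 to -53. Over all 32851 windows, 2.98% held a MEF2 site and 1.5% a CArG box. Of the 10 genes, 7 had a window in the RefSeq table, 9 windows in all because Mef2c has 3 starts; the windows of Mef2c held a T-box half-site at -216 to -211 of the second start and an E-box at -245 to -240 of the third, and that of Mef2d none of the motifs.

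Over the 10 genes, 1 was higher and 0 lower in MBELN at an adjusted p of 0.05 with limma. Of all transcript probe sets 5.18% passed, 1.42% as higher and 3.76% as lower; 4 genes had an unadjusted p under 0.05, as had 17.8% of all. The groups did not overlap in 5 of the 10 genes, against 25.3% of all probe sets, with MBELN above PBS in 4 (11.9% of all) and below it in 1 (13.4% of all); Tbx20 is among the 4 by values below background. The median difference was 2.32, or 2.13 with genes below background in 1 group at their bound, against 0.09 and 0.08 over all probe sets. The genes were chosen with earlier results of these arrays known, so these counts describe them and are not evidence of a direction.

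The number of calls depended on MBELN 2. Without it 8 genes were higher (9.51% of all probe sets) and 1, Hand1, was lower (7.32% of all), and Srf was the gene that did not pass. In that fit Tbx5 differed by 3.80 ± 0.55 and Hand2 by 3.49 ± 0.60 (limma, SE, adjusted p = 0.00849 and 0.0154). Tbx20, Nkx2-5 and Myocd, below background in all PBS arrays, were at least 348-fold, 4.50-fold and 2.70-fold higher over MBELN 1 and 3. These bounds were not tested. The measured differences, from PBS values below background, were 9.54, 3.44 and 2.57 (limma, adjusted p = 0.000103, 0.0043 and 0.0191). With MBELN 2 as the lone MBELN array, Mef2c and Mef2d were the 2 genes higher (11.1% of all probe sets) and 0 were lower (6.11%), and the differences of Hand2 and Srf turned negative, at -0.93 and -1.05. Those of Tbx5 and Myocd did so too, but MBELN 2 was below background in both genes, so that their sign there has no meaning. Hand2 was also below background in MBELN 2, and in PBS 2, so that its difference there has no exact size. Leaving out both PBS 2 and MBELN 2 gave 8 higher (15.1% of all) and 1 lower (15.4%).

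**Figure D2:**
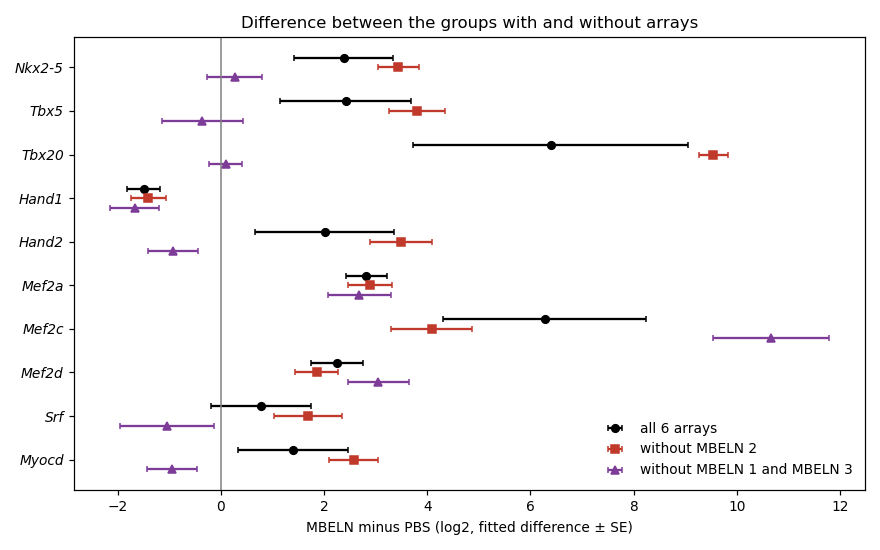
Fitted difference MBELN minus PBS in log2 units (horizontal axis) with its standard error for each gene, from all 6 arrays, without MBELN 2, and with MBELN 2 as the lone MBELN array. Mef2a stays between 2.68 and 2.89 in the 3 fits and Hand1 stays below 0, whereas Mef2c moves between 4.08 and 10.66. Tbx20 moves between 9.54 and 0.10, measured differences from PBS values below background.

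Of 25 other measured cardiac transcription factors, 1 was higher and 0 lower in MBELN, and 24 did not pass the threshold. Hey1, a Notch-responsive repressor, was higher in MBELN by 3.34 ± 0.55 (log2, SE, n = 3, limma, adjusted p = 0.0294). It read 7.92, 9.01 and 7.00 in MBELN, against 4.80, 4.66 and 4.45 in PBS. That call ended without MBELN 1 (0.113), PBS 1 (0.128), PBS 2 (0.0631) or PBS 3 (0.139). Its relative Hey2, a ventricular factor, Prdm16 and Irx3, a factor of the conduction system, were below background in all PBS arrays and did not pass (adjusted p = 0.0843, 0.101 and 0.235). The MBELN means of Hey2 and Prdm16 lay at least 1.46-fold and 2.27-fold above that background. For Irx3, with 2 MBELN arrays above background, the mean of all MBELN arrays lay 11.1-fold above it, which is not a strict bound. Singled out after their values had been seen, Gata4 read 11.32, 3.45 and 12.14 in MBELN, against 3.91, 2.99 and 3.29 in PBS, and Gata5, which is also a factor of the small intestine, read 4.73, 2.97 and 3.11, against 11.37, 3.15 and 12.08. Gata4 therefore had its high values in the same arrays as Tbx20, and Gata5 in the PBS arrays with Paneth cell markers. The median difference of these 25 genes was 1.20, or 1.11 with bounds. Without MBELN 2, 12 were higher and 0 lower, beside 9.51% and 7.32% of all probe sets. With it as the lone MBELN array 1 was higher and 2 were lower, beside 11.1% and 6.11% of all. These shares stand beside the counts of the other lists in the same fits as well.

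Of 26 measured genes that cardiac factors are known to switch on, 4 were higher, 0 lower and 22 not past the threshold, with a median difference of 7.16, or 6.89 with bounds. Ryr2, the calcium release channel of the sarcoplasmic reticulum, read 13.05, 11.22 and 12.75 in MBELN, against 3.46, 3.75 and 4.74 in PBS (difference 8.36 ± 0.62, SE, n = 3, limma, adjusted p = 0.00250). Slc8a1, the sodium-calcium exchanger, was higher in MBELN by 6.76 ± 0.60 and Gja1, connexin 43, by 5.42 ± 0.76 (limma, adjusted p = 0.00432 and 0.0180). Atp2a2, the calcium pump of the sarcoplasmic reticulum, was higher by 6.69 ± 1.03 (limma, adjusted p = 0.0240), with values in MBELN 1 and 3 near the top of the scale. All of these are also expressed in brain. MBELN 2 had a heart muscle median of 3.72, yet in it they read between 10.64 (Slc8a1) and 16.94 (Atp2a2). The call of Gja1 ended without MBELN 1, PBS 1 or PBS 3 (adjusted p up to 0.0996) and that of Atp2a2 also without MBELN 3 (up to 0.10).

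Without MBELN 2, 25 of the 26 passed as higher and 0 as lower. With MBELN 2 as the lone MBELN array, 4 were higher and 2 lower, and the median difference was -0.17. By array, 25, 10 and 25 of the 26 were above background in MBELN 1, 2 and 3, against 12, 10 and 13 in PBS 1, 2 and 3. The counts in MBELN 2 and PBS are near or under the share of all probe sets above background.

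Of 15 measured smooth muscle genes that Srf and Myocd drive, 7 were lower and 0 higher in MBELN. The other 8 did not pass, and the median difference was -3.48. Actg2, the enteric smooth muscle actin, read 4.36, 2.65 and 5.22 in MBELN, against 16.65, 18.09 and 17.02 in PBS (difference -13.18 ± 0.77, SE, n = 3, limma, adjusted p = 0.00143). Mylk, the myosin light chain kinase, was lower as well, with a difference of -8.24 ± 0.83 (limma, adjusted p = 0.00641). So were Myh11, the smooth muscle myosin, with -9.89 ± 1.15, and Kcnmb1, a potassium channel subunit, with -3.48 ± 0.42 (limma, adjusted p = 0.0102 and 0.0112). The call of Myh11 ended without PBS 1 (0.0558) or PBS 3 (0.0566), and that of Kcnmb1 without MBELN 1 (0.0591) or PBS 1 (0.0719). Without MBELN 2, 10 were lower and 1 was higher, and with it as the lone MBELN array 14 were lower and 0 higher. Beside these genes, Srf overlapped between the groups and Myocd was below background in all PBS arrays.

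**Figure D3:**
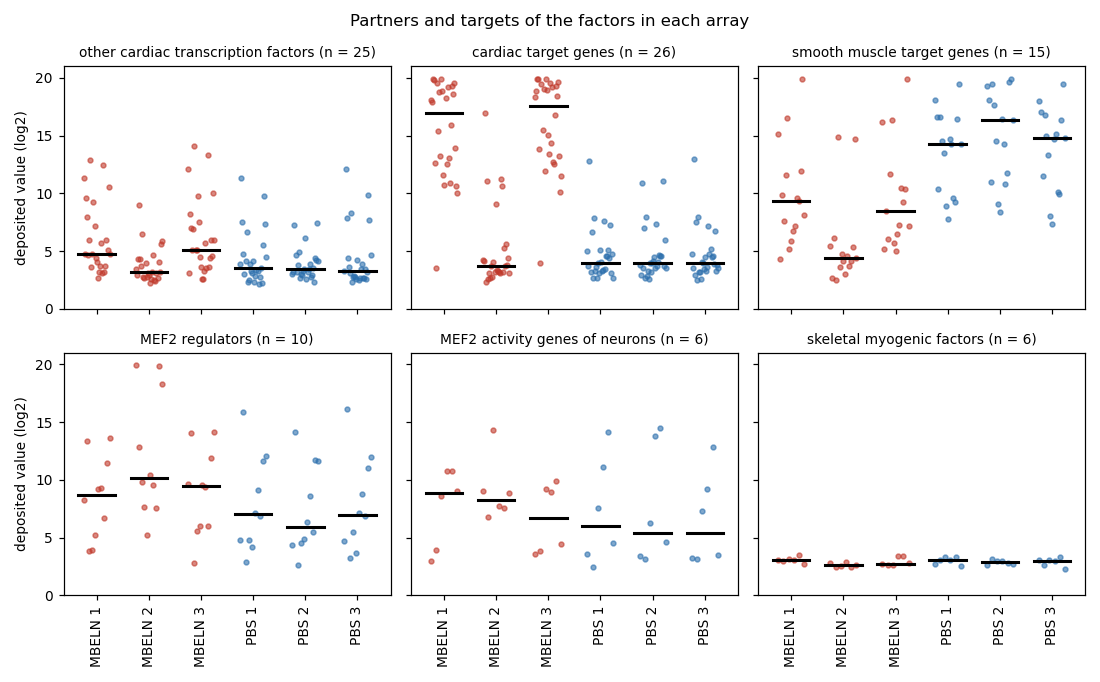
Deposited log2 values (vertical axis) of each measured gene of 6 lists in the 6 arrays, a point per gene, MBELN in red and PBS in blue, with the list median as a bar. Cardiac target genes have medians of 16.92 and 17.58 in MBELN 1 and 3 and of 3.72 in MBELN 2, and smooth muscle target genes have medians of 14.30 to 16.33 in the PBS arrays.

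Regulators of the Mef2 factors were measured in 10 genes, of which 1 was higher, 0 lower and 9 not past the threshold, with a median difference of 1.88, or 1.26 with bounds. Hdac9, a class IIa deacetylase that binds and represses Mef2, was higher in MBELN by 2.90 ± 0.45 (log2, SE, n = 3, limma, adjusted p = 0.0244). It read 9.21, 10.44 and 9.58 in MBELN, against 7.13, 6.30 and 7.10 in PBS. Its call ended without MBELN 1, MBELN 3, PBS 1 or PBS 3 (adjusted p between 0.0608 and 0.101). Hdac7, a relative of vessels and lymphocytes, differed by 1.24 (adjusted p = 0.229). The kinase Camk2d differed by -1.97 (adjusted p = 0.196) and the calcineurin subunit Ppp3cb by 3.44 (0.240), with 13.62, 18.28 and 14.13 in MBELN, against 12.05, 11.66 and 11.98 in PBS. Both Ppp3cb and Mef2c were thus highest in MBELN 2. Without MBELN 2, 3 regulators were higher and 0 lower, and with it as the lone MBELN array 6 were higher and 0 lower.

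In the remaining lists no gene passed the threshold with limma, and the counts at an unadjusted p under 0.05 are near or under the 17.8% of all probe sets. Of 7 Srf cofactors, 1 had an unadjusted p under 0.05: Fhl2, a LIM protein of heart muscle, read 18.34, 8.44 and 18.97 in MBELN, against 8.01, 7.90 and 8.01 in PBS (adjusted p = 0.273). Of 11 Srf-driven immediate early genes, 2 had such a p, Vcl and Fos, with differences of -2.24 and -4.77 (adjusted p = 0.135 and 0.268). Of 6 activity genes that Mef2 regulates in neurons it was 1, Klf6, at -4.40 (adjusted p = 0.0649). Homer1, a scaffold of synapses in the same list, read 8.60, 14.32 and 9.17 in MBELN, against 7.53, 6.27 and 7.31 in PBS. MBELN 2 was thus its highest array, as it was for Mef2c and, in this list, for Bdnf (6.76). The list did not share this order: Klf6 was lowest in MBELN 2, at 7.56, and Nr4a1 was highest in MBELN 1, at 9.04. Arc and Jun, named after their values had been seen, had their highest (9.06) and lowest (7.71) values in MBELN 2. All 6 skeletal myogenic factors, such as Myod1 and Myog, stayed below background in all 6 arrays, and 0 of them had an unadjusted p under 0.05.

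Without MBELN 2, cofactors had 3 genes higher and 1 lower, immediate early genes 1 and 2, and activity genes 0 and 1. With MBELN 2 as the lone MBELN array these were 1 and 0, 1 and 1, and 4 and 1.

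The closest profiles over the 6 arrays were found by the root mean square difference from each factor after both genes had been centred on their own mean, among 18451 genes with a proper symbol. The nearest to Tbx20 were Rrad, a small GTPase of heart and skeletal muscle (0.15), Fsd2 (0.24) and the probe set annotated Mir675 (0.25, all log2). For Nkx2-5 they were Fech, the last enzyme of haem synthesis (0.14), Hspa12b (0.15) and Snapin (0.21), and for Tbx5 Emc2 (0.21), Nmnat1 and Fxr1. Mef2c lay farther from any gene, with Rab3a, a GTPase of synaptic vesicles, at 0.83, then Osbpl1a at 0.90 and Ndrg4.

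Nearest to Mef2a were Nfic (0.12), Polb and Aasdhppt, and to Mef2d Mosmo (0.13), Ttl and Ulk2. Hand1 was matched by Ptpn22 (0.11), Nono and Ap3s1, Hand2 by Rbp7 (0.25), Pla2g12a and Pmpcb, Srf by Ajuba (0.22), Hmgb3 and Hat1, and Myocd by Gtf2a2 (0.22), Diablo and Ddo. These likenesses are descriptions over 6 arrays that fall into few kinds of profile, and they say nothing of shared function.

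**Figure D4:**
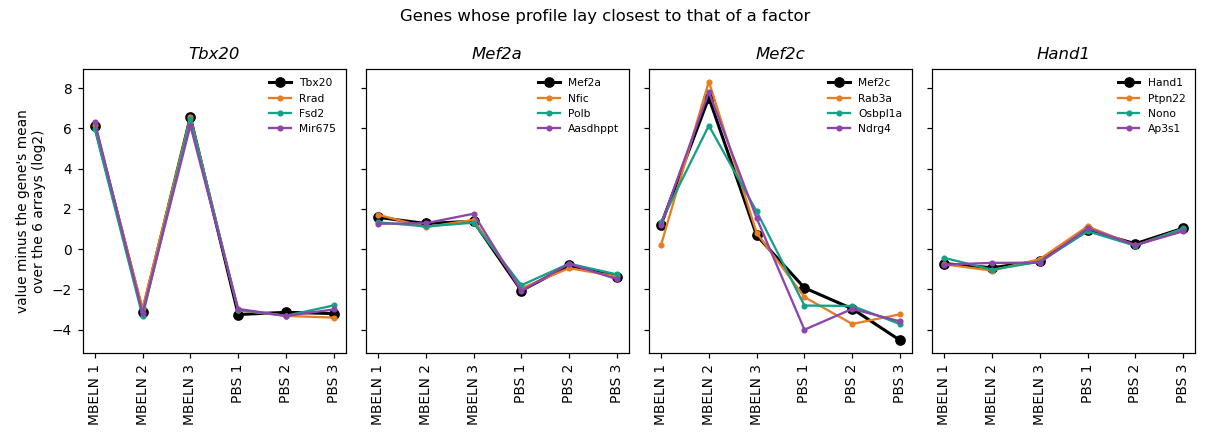
Values of 4 factors and of the 3 genes closest to each, centred on each gene's mean over the 6 arrays (vertical axis, log2), in MBELN and PBS arrays (horizontal axis). The lines of Tbx20, Mef2a and Hand1 run within a root mean square difference of 0.25 of their neighbours, and that of Mef2c is 0.83 or more from its own.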

How the data were processed

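Per the labels, 90 ng of Trizol-extracted RNA gave biotinylated cRNA by an Affymetrix protocol; the labels also mention Ion AmpliSeq, a sequencing assay. The submitters' processing notes list Transcriptome Analysis Console 4.0. How probe sets were summarised and normalised, and on which build, is not given in the sources. The values the authors deposited were taken as log2 because values ran between 1.77 and 19.93; this scale is inferred.

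Of 28846 rows, 6640 array controls stayed out. The 22206 transcript probe sets were fitted with limma 3.58.1 (lmFit and eBayes, R 4.3.3, statmod 1.5.0), MBELN minus PBS, two-sided, with Benjamini-Hochberg adjustment over all of them and calls at 0.05. Residual degrees of freedom were 4 and prior ones 1.66, and the number of arrays limits the precision. The procedure was tested on simulated data. Of the probe sets, the platform annotation gave 19572 a single symbol, 0 several and 2634 none, and Entrez identifiers matched to GRCm38.p6 changed 0 symbols. Where all arrays of 1 group lay below the receptor level, a fold is a bound, the other group's mean over the mean of those levels. It is not a strict bound where that group's mean includes an array below background. Genes named are the 10 members, up to 4 genes per list with the smallest p, the 3 nearest profiles of each member and markers; genes outside this rule are marked as such. Some listed genes are not reported here. The members and lists were chosen with earlier results of these data known. Start sequences are from RefSeq, and the window was set after they had been read. As alternatives, values were quantile-normalised or median-centred, dim probe sets removed, the variance trended and robust, arrays weighted, the replicate number or the level of the 4 hybridisation controls taken as a block, the threshold moved and arrays left out. Figures were drawn with matplotlib 3.10.9.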

Additional observations from a re-analysis of the deposited data

How the results depend on the processing

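Mef2a, higher in MBELN, kept its direction under all 17 alternatives, between 2.29 and 3.19, but lost its call under 7 of them, with an adjusted p of 0.0784 with a trended robust variance and up to 0.0957 with the replicate block. Deviations from the group mean correlated at -0.03, -0.07 and -0.06 between same-numbered arrays, and between -0.09 and 0.08 for differently numbered ones. Arrays of a group hold unlike RNA, so these correlations cannot show whether same-numbered arrays share more than a number. The replicate block gave 456 probe sets past the threshold (63 higher, 393 lower) against 1150, 315 and 835 in the main fit, and 0 members. Quantile normalization, median centring, the filter on dim probe sets and a block for hybridisation control level each gave 1 member higher and 0 lower. In the same order, 315, 303, 315 and 381 probe sets were higher and 817, 858, 847 and 994 lower. The filter kept 12666 probe sets. The trended robust variance gave 193 probe sets higher and 0 members. A threshold of 0.01 gave 407 (68 and 339) and 0 members, and one of 0.1 gave 1772 (556 higher), with 2 members higher and 1 lower. Array weights gave 5757 (2870 and 2887), with 8 members higher and 1 lower. With any 1 array left out, the probe sets ranged between 377 and 3738 (51 to 2112 higher, 325 to 1626 lower), and the members between 0 and 8 higher and 0 and 1 lower; the highest counts were those without MBELN 2, and those without MBELN 1, MBELN 3, PBS 1 or PBS 3 held 0 members. Without PBS 2 and MBELN 2 there were 6769 (3354 and 3415), with 8 members higher and 1 lower. Within the arrays of higher hybridisation control level, MBELN 1 and 3 against PBS 2 alone, there were 4174 (2129 and 2045) with 8 members higher. Within those of lower level, MBELN 2 alone against PBS 1 and 3, there were 7234 (3731 and 3503), with 3 members higher and 1 lower, and Hand2, Myocd and Srf turned to -1.18, -0.81 and -1.60. Within each group the level divides the arrays as their tissue markers do, so level and markers cannot be told apart. In a setting chosen after seeing the data, MBELN 2 against all PBS arrays, there were 3832 (2475 and 1357) with 2 members higher, and Tbx5, Hand2, Myocd and Srf turned to -0.36, -0.93, -0.94 and -1.05; Myocd is below background on both sides of these comparisons, and Tbx5 in MBELN 2, so their signs have no order. The cause of these changes was not tested. Hand2 too was below background in MBELN 2, so its differences in these settings have no exact size. Of all 167 differences of the members under alternatives, 7 were reversed, 7 lost a call, 37 gained one and 116 did neither. The choice among probe sets was not run, since each member had 1. Nkx2-5, Hand1 and Myocd lie close to background, which limits what their differences show.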
